A study of Saccharomyces cerevisiae with 55 samples.

Results

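Ribosome assembly in budding yeast (Saccharomyces cerevisiae) was followed through 70 genes, chosen by name from 5540 measured genes. Their symbol in the array's annotation is UTP, NOP, NOC, RRP, DBP, NSA, RPF or ENP followed directly by a number, and the naming rule itself uses no measured value. The UTP family holds 18 of them, NOP 16, RRP 18, DBP 9, NOC 3, and NSA, RPF and ENP 2 each. Each gene had 1 probe, and each symbol on the array is still the gene's current symbol.

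RNA of strains with a mutated histone H4 was compared with RNA of a parental strain on 2-colour arrays, with lysines 5, 8, 12 and 16 of the H4 tail replaced by arginine in all 15 combinations: K5R, K8R, K12R and K16R alone, the 6 double, the 4 triple and the quadruple mutant. Arginine keeps the positive charge of lysine and cannot be acetylated. The 55 arrays made 54 samples of 30 mutant strains, since a technical pair of the quadruple mutant was averaged and counted once, as its replicate 4. Every mutant had 3 to 5 samples from 2 strains, except K8R/K12R with 1 strain and the quadruple mutant with 3. The parental strain was MDY453 on 35 arrays and MDY470 on 20, and its own H4 sequence is given in the labels only as parental. No other allele, growth condition or age of the cultures is stated in the labels used here.

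Ribosomes are built in the nucleolus, where a long precursor RNA is transcribed, folded, chemically modified and cut while assembly factors and ribosomal proteins join it. The UTP proteins belong to the small subunit processome, the large particle that forms around the U3 snoRNA on the precursor of 18S rRNA. Most of the other families act on the large subunit, on the small subunit or on both, and some serve elsewhere: NOP1, NOP56 and NOP58 are core proteins of the box C/D snoRNPs that methylate rRNA, several RRP genes encode the RNA exosome, and DBP1, DBP2 and DBP5 encode helicases of messenger RNA. In yeast these genes form a regulon that is switched down together in stress and slow growth.

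All values below are log2 ratios centred on each array's median, so they are relative to the median gene of the same array. Ratios above 0 likely stand for more RNA in the mutant, because all arrays carry parental RNA as their reference; the sources used here give neither dyes nor direction. Higher and lower are used in that sense. Tests were two-sided limma tests with Benjamini-Hochberg adjustment over all 5540 genes and a threshold of 0.05. Not every sample is stated to be a separate culture, so the p-values rest on the spread among these samples, which may in part be technical. Each mutant was tested against 0, which leaves out the parental strain's own spread, and the number of arrays limits the precision. In RNA from a whole culture, fewer cells of a kind and less RNA per cell cannot be told apart.

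Loss of acetylatable lysine at positions 5, 8 and 12 went with lower expression of most assembly factors. Averaged over K5R, K8R and K12R, in a model that adds the effects of the 4 sites to an intercept, 58 of the 70 genes were lower and 1, DBP1, was higher. Of all genes, 31.5% were lower and 32.4% higher in the same comparison. The median effect per substitution was -0.13 over the 70 genes and -0.001 over all genes. Of the UTP genes 16 of 18 were lower, with a median of -0.14. Of the other families 42 of 52 were lower, with a median of -0.13, and this difference between the groups was not tested. With arrays scaled to a common spread, 46 of the 70 genes were lower and 0 higher. The size depended on the intercept: without it the median over the 70 genes was -0.09. The fitted medians of the single mutants K5R, K8R and K12R lay nearer to 0, at -0.03, -0.05 and -0.04.

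The change was spread over the roles that build the subunits. Among the small subunit genes outside the UTP family 11 of 12 were lower, and among the large subunit genes 22 of 23. Of the 3 genes that serve both subunits, RRP5 (-0.16 ± 0.03, SE) and RRP14 (-0.12 ± 0.05) were lower and RRP12 (-0.03 ± 0.03) did not pass. The exosome had 4 of 7 lower genes. None of the 3 box C/D snoRNP genes was lower, by adjusted or by unadjusted p (0 of 3 at each): NOP58 had an effect of -0.05, NOP1 of -0.01 and NOP56 of 0.04.

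The lowest mean effects belonged to NOP13, a nucleolar RNA-binding protein of unclear role (-0.41 ± 0.06, SE, limma adjusted p = 5.05e-09), to NOP19, a small subunit assembly factor (-0.34 ± 0.03, adjusted p = 5.42e-13), and to RRP8, a methyltransferase of 25S rRNA (-0.29 ± 0.03, adjusted p = 1.39e-12). At the other end stood DBP1, a helicase of translation initiation, at 0.18 ± 0.04 (adjusted p = 1.86e-05). With arrays scaled to a common spread DBP1 had 0.05 and no longer passed. NOP56 and UTP22, the latter of the UTP-C subcomplex, were next highest, at 0.04 and 0.02, and did not pass.

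**Figure D1:**
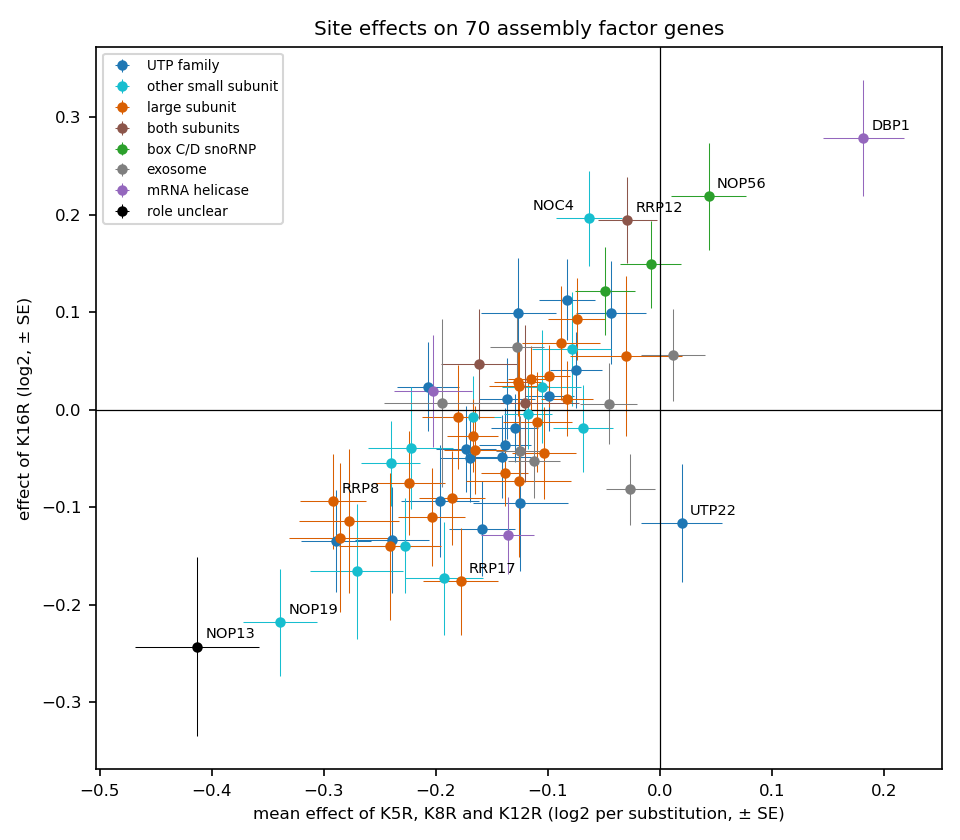
Each point is 1 of the 70 genes, coloured by role. The x axis gives the mean effect of K5R, K8R and K12R and the y axis the effect of K16R, both as log2 with standard errors from limma; most points lie left of 0 on the x axis and on both sides of 0 on the y axis, with NOP13 at -0.41 and DBP1 at 0.18 as the ends of the x axis.

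The term of each site in this model, which is not the single mutant, was also tested. The K5R term was lower in 47 of the 70 genes (18.3% of all genes), the K8R term in 37 (18.0% of all genes) and the K12R term in 50 (24.4% of all genes). The median effects over the 70 genes were -0.14, -0.12 and -0.16. NOP13 was the lowest of them at each site, with -0.41 for K5R, -0.36 for K8R and -0.47 for K12R. NOP19 followed at K8R (-0.30) and K12R (-0.38), and RRP8 at K5R (-0.34). Without an intercept the K5R, K8R and K12R counts were 20 (7.42% of all genes), 4 (6.28% of all genes) and 30 (14.3% of all genes). The count for the mean of the sites was 56 (31.9% of all genes). The K8R count was then near that over all genes, and the medians of the 3 terms were -0.10, -0.05 and -0.11.

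The result was looked at within each parental strain. On the samples set against MDY453 alone, 56 of the 70 genes were lower in the mean of the 3 sites (27.3% of all genes), with a median of -0.15. On those set against MDY470 alone, 14 were lower (15.3% of all genes), with a median of -0.05. There the K5R term was lower in 3 of the 70 genes (3.03% of all genes), the K8R term in 5 (6.75% of all genes) and the K12R term in 6 (10.3% of all genes), near or below the shares over all genes. The MDY470 arrays hold no quadruple mutant and no K5R/K12R/K16R, and 1 sample of K5R/K8R/K12R, so the parental strain and the mutants measured against it cannot be told apart. That 1 sample had a median of -0.27 over the 70 genes, at the upper end of its group.

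K16R had both lower and higher genes among the assembly factors. Its effect in the additive model was lower in 10 of the 70 genes (19.0% of all genes) and higher in 7 (20.4% of all genes), with a median of -0.02. The difference of K16R from the mean of the other sites was itself tested: 26 genes had a higher K16R effect (8.09% of all genes) and 0 a lower one, or 1 at an unadjusted p. Within the arrays against MDY453 the count of genes with a higher K16R effect was 8 (2.98% of all genes). Within those against MDY470 it was 9 (2.83% of all genes). NOC4, the partner of Nop14 in small subunit assembly, had the largest difference (0.26), followed by UTP13 of the UTP-B subcomplex (0.23) and UTP10 (0.23).

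All 3 box C/D snoRNP genes were higher in the K16R term: NOP56 by 0.22 ± 0.06 (SE, limma adjusted p = 0.00117), NOP1, the methyltransferase fibrillarin, by 0.15 ± 0.04 (adjusted p = 0.00632) and NOP58 by 0.12 ± 0.05 (adjusted p = 0.0263). DBP1 (0.28), NOC4 (0.20), RRP12 (0.19), which serves the export of both subunits, and UTP30 (0.11) made up the rest. The lowest K16R effects were those of NOP13 (-0.24), NOP19 (-0.22) and RRP17 (-0.18), an exonuclease.

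This split of 10 lower and 7 higher genes depended on the fit. It was 7 lower and 15 higher with arrays scaled to a common spread, and 1 lower and 12 higher without an intercept. Within the MDY453 arrays 5 genes were lower (11.7% of all genes) and 5 higher (12.3%), within the MDY470 arrays 0 (7.69%) and 4 (4.78%). NOP13 had 0.11 within the MDY470 arrays. Without replicate 3 of the quadruple mutant, or without replicate 1 of K5R/K12R, 6 genes were lower.

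NOP56, the snoRNP gene with the largest K16R term, was also looked at sample by sample. Its ratios in K16R alone were 0.07, 0.08 and 0.14, against -0.12, -0.12 and -0.11 in K5R, -0.12, -0.01 and -0.14 in K8R, and -0.19, -0.05 and -0.08 in K12R. The K16R samples lay above all 9 samples of the other single mutants. Over all mutants the groups overlapped: the 30 samples with K16R ran from -0.30 to 0.59 with a median of 0.12, and the 24 without from -0.41 to 0.13 with a median of -0.11. NOP1 overlapped too, from -0.18 to 0.40 (median 0.18) with K16R and from -0.21 to 0.32 (median 0.01) without. NOP58 had -0.07, 0.09 and 0.20 in K16R alone and -0.17 to 0.06 in the other single mutants, so these overlapped. In the K16R single mutant 0 of the 3 snoRNP genes passed, also at an unadjusted p.

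Markers of the mating type moved with K16R as well. Of 7 genes specific to a cells, such as the pheromone receptor STE2, 7 were lower with K16R (19.0% of all genes). Their median effect was -2.54. The median of these genes ran from -3.48 to -1.11 in the 30 samples with K16R and from -0.11 to 0.29 in the 24 without. The part of mating type in the snoRNP result was not tested.

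The single mutants had few called genes. Against the parental strain, 0 of 70 genes passed in K5R (0.632% of all genes in either direction) and 0 in K8R (0.325% of all genes), with 10 and 5 at an unadjusted p. In K12R 1 passed, RRP5 at -0.30 (2.87% of all genes), and in K16R 4 (18.4% of all genes): UTP8 at -0.20, and UTP25 (0.24), NOP9 (0.24) and RPF2 (0.31), a Brix protein that brings in the 5S RNP. RPF2 had 0.21, 0.16 and 0.60 in the K16R samples, and 0.18 without passing when replicate 3 was left out. That replicate set strain MDY458 against MDY470, and replicate 1 set the same strain against MDY453. Scaling the arrays to a common spread raised these counts to 23, 14, 13 and 21, with 6 lower and 7 higher in K12R. Without centring the 9 called genes of K16R were all higher. RRP5 did not pass without any one of the K12R samples or without replicate 1 of K5R. The K16R count was 2, 1 and 2 without its replicates 1, 2 and 3, and 7 without replicate 1 of K12R/K16R.

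Of the double mutants without K16R, K5R/K12R and K8R/K12R had somewhat more lower genes than the background in the fit to all samples. K5R/K12R lowered 15 of 70 (21.4%, beside 12.7% of all genes), with a median of -0.12. K8R/K12R lowered 14 (20.0%, beside 11.3% of all genes), also with a median of -0.12. K5R/K8R lowered 9 (12.9%), near the 9.69% of all genes, with a median of -0.10. The double mutants with K16R stayed below the background. K12R/K16R had 5 lower genes (13.3% of all genes) and K5R/K16R 3 (13.4% of all genes). K8R/K16R had 0, or 2 at an unadjusted p (11.5% of all genes). The lowest gene was RRP46, an exosome ring protein, in K5R/K8R and K5R/K12R (-0.41 in both), and RRP14 in K8R/K12R (-0.58) and K5R/K16R (-0.34). In K8R/K16R it was UTP22 (-0.26) and in K12R/K16R RRP15 (-0.33). RRP14 in K5R/K16R and UTP22 in K8R/K16R did not pass. RRP15 in K12R/K16R had -0.94, 0.13, -0.10 and -0.13, and -0.04 without replicate 1. RRP14 in K8R/K12R had -0.39 without replicate 3 and did not pass, and RRP46 did not pass without replicate 1, 2 or 4 of K5R/K8R, nor without any of the K5R/K12R samples. DBP1 was the highest gene in each double mutant, from 0.21 in K5R/K8R, where it did not pass, to 0.50 in K8R/K12R.

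The split of lower against higher genes also depended on the scale of the arrays. K12R/K16R had 5 lower and 5 higher genes, 3 and 5 without centring, and 11 and 6 with arrays scaled to a common spread. K5R/K16R had 3 lower and 5 higher, and 0 and 9 without centring. K8R/K16R had 0 lower and 5 higher, and 2 and 11 with scaled arrays.

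These double mutant counts rest on 3 or 4 samples each. K5R/K12R had 4 lower genes without its replicate 1 and 6 without replicate 2, K8R/K12R 6 without replicate 2 or 3, and K5R/K8R 4 without replicate 2. K12R/K16R had 2 without replicate 1 and 10 without replicate 2. K5R/K16R ranged from 0 to 6 and K8R/K16R from 0 to 1 over the samples left out in turn. On the MDY453 arrays alone 0 genes were lower in K5R/K8R, K5R/K16R, K8R/K16R and K12R/K16R, each with up to 3 samples. The shares of all genes were 0.199%, 2.83%, 2.78% and 3.30%. K5R/K12R has 1 sample there, with a median of -0.11. On the MDY470 arrays alone, K5R/K12R had 19 lower genes (18.6% of all genes) and K5R/K8R 12 (12.9% of all genes). The within-strain correlation was 0.36 on the MDY453 arrays, -0.17 on the MDY470 arrays and 0.20 on all arrays. K8R/K12R, measured on MDY470 arrays only, kept its median of -0.12 but went from 14 to 36 lower genes (27.7% of all genes). Counts from the MDY453 and MDY470 arrays thus rest on different estimates of spread and cannot be compared directly.

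K5R/K8R/K12R was the triple mutant with the widest change. It lowered 57 of the 70 genes (30.1% of all genes) and raised DBP1, with a median of -0.33. The other triple mutants lowered 43 genes in K5R/K12R/K16R (28.0% of all genes), 18 in K8R/K12R/K16R (23.1% of all genes) and 16 in K5R/K8R/K16R (21.0% of all genes), with medians of -0.22, -0.09 and -0.07. K5R/K8R/K16R and K8R/K12R/K16R each had 2 higher genes, NOP1 and DBP1, and K5R/K8R/K16R had 11 lower and 3 higher without centring. Its count of lower genes was 9 without replicate 2 and 10 without replicate 3. K5R/K8R/K12R had 45 lower genes on its 4 MDY453 arrays (17.6% of all genes). Its MDY470 arm is 1 sample, with a median of -0.27, and K5R/K12R/K16R had MDY453 arrays only.

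Among single genes, NOP19 was lowest in K5R/K8R/K12R, with -0.66, -1.001, -0.51, -0.99 and -0.65 in its 5 samples. All of them lay below the 12 single mutant samples, which ran from -0.04 to 0.31. The fitted mean of NOP19 was -0.75 ± 0.09 (SE, limma adjusted p = 8.89e-10). NOP19 was also lowest in K8R/K12R/K16R (-0.48), UTP11 in K5R/K8R/K16R (-0.47) and RRP8 in K5R/K12R/K16R (-0.60). DBP1 was highest in each of the 4 triple mutants, from 0.42 in K8R/K12R/K16R to 0.77 in K5R/K12R/K16R.

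**Figure D2:**
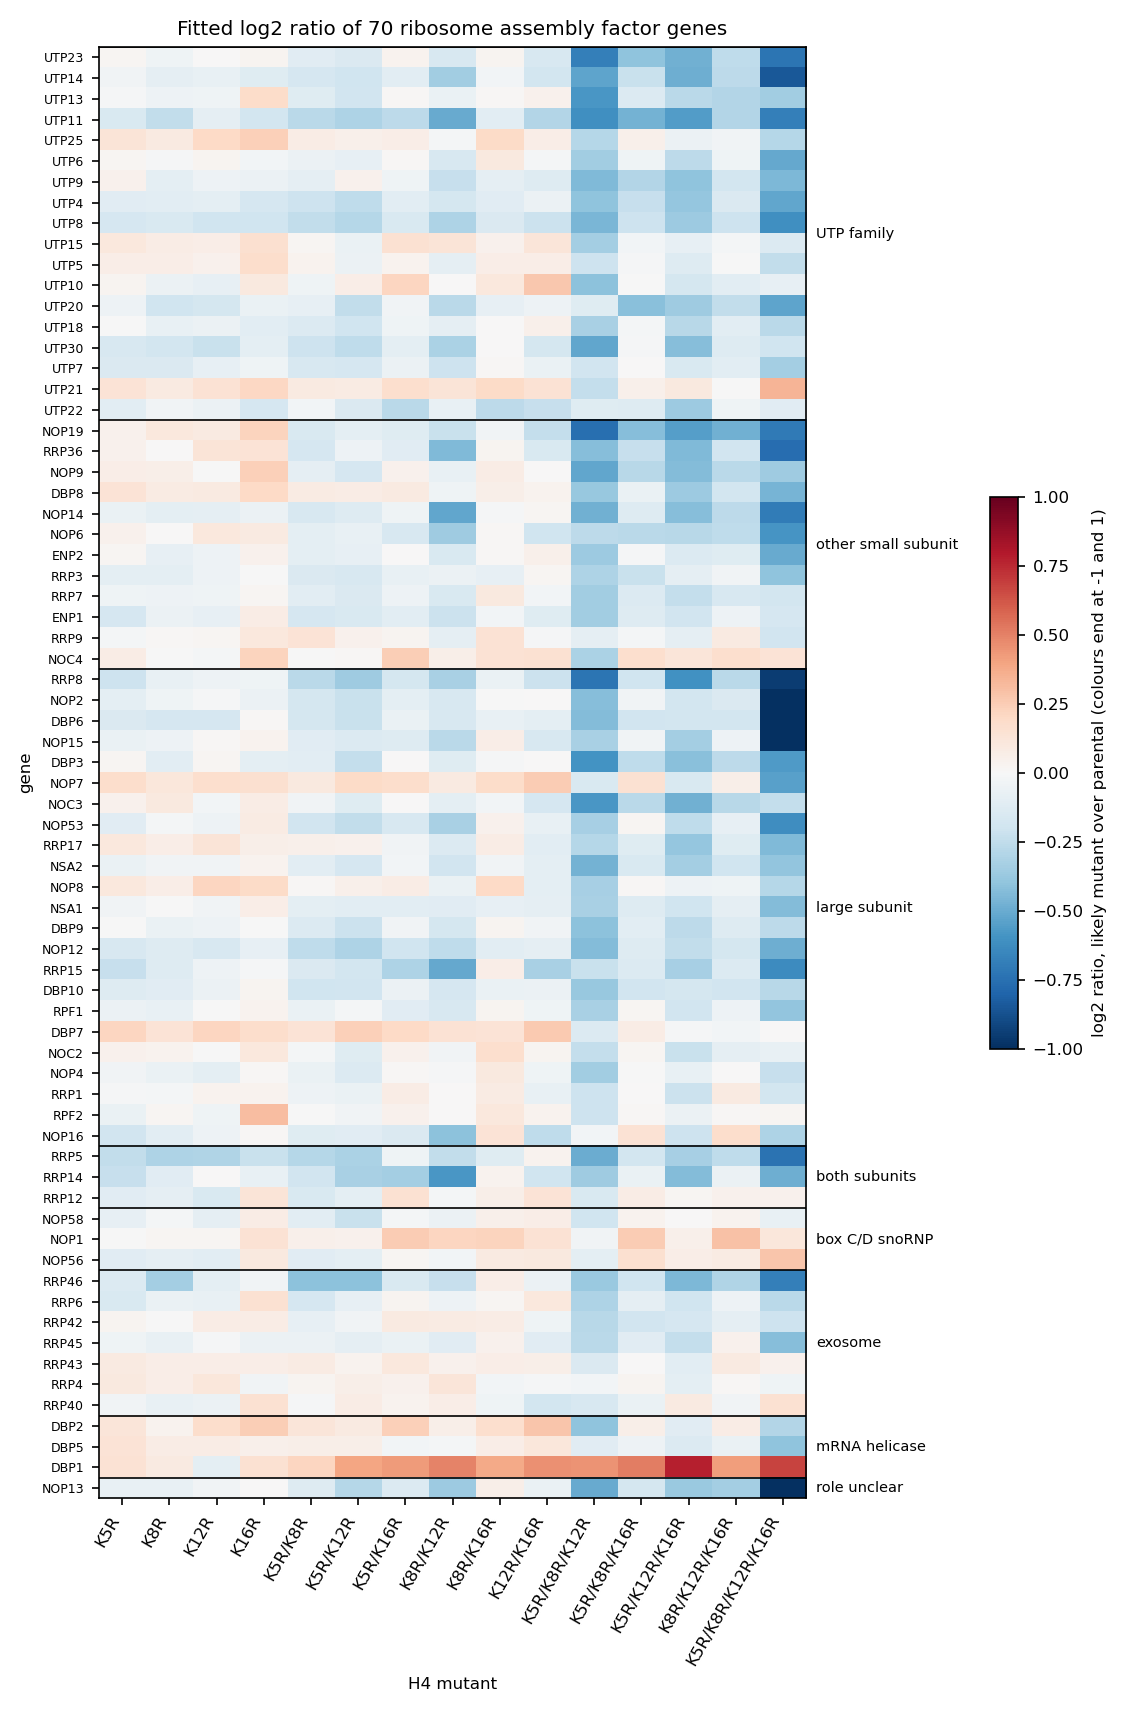
Each row is 1 of the 70 genes, grouped by role, and each column 1 of the 15 H4 mutants; the colour gives the fitted log2 ratio, with blue below 0 and red above. The blue columns are those of K5R/K8R/K12R, K5R/K12R/K16R and the quadruple mutant, the snoRNP rows stay pale, and the DBP1 row turns red, to 0.77 in K5R/K12R/K16R.

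The quadruple mutant lowered 52 of the 70 genes (36.6% of all genes) and raised 4 (37.2% of all genes), with a median of -0.35. Of the UTP genes 14 were lower and 1 higher, with a median of -0.34. Of the other families 38 were lower and 3 higher, with a median of -0.37. With arrays scaled to a common spread, 35 of the 70 genes were lower and 2 higher. In 39 of the 70 genes all 4 quadruple samples lay below all 12 single mutant samples, as they did in 20.3% of all genes. That held for 10 of 18 UTP genes and 29 of 52 of the others, among them 16 of 23 large subunit genes.

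The deepest decreases in the quadruple mutant were in NOP13 and in a group of large subunit genes. NOP13 had ratios of -2.09, -2.06, -1.56 and -1.10 in its 4 samples, against -0.18 to 0.13 in the single mutants. No quadruple sample overlapped any other sample, since the lowest triple mutant sample had -0.82. The fitted mean of NOP13 was -1.67 ± 0.09 (SE, limma adjusted p = 5.88e-21), 3.18-fold lower.

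DBP6, a helicase of large subunit assembly, had -1.59, -1.40, -1.25 and -0.72. All were below the other 50 samples, whose lowest value was -0.64. Its fitted mean was -1.22 ± 0.08 (SE, limma adjusted p = 3.38e-18), 2.32-fold lower. NOP2, which methylates 25S rRNA, had -1.62, -1.45, -1.22 and -0.59 and NOP15 -1.36, -1.22, -0.90 and -0.60, with fitted means of -1.19 ± 0.09 and -0.997 ± 0.10 (SE). In DBP6, NOP2, NOP15 and NOP13 alike the ratio nearest 0 was that of replicate 4, from strain MDY487. RRP8 did not share that order: it had -1.13, -0.87, -0.89 and -0.93, below all single mutant samples, the lowest of which had -0.23.

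Of the 23 large subunit genes, 3 did not pass in the quadruple mutant, namely NOC2 (-0.08), DBP7 (0.003) and RPF2 (0.02). NOC2 works in the export of large subunit precursors and DBP7 is a helicase. The other 20 were lower, from -1.22 in DBP6 to -0.18 in RRP1.

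In the UTP family the lowest gene was UTP14, which activates the helicase Dhr1. It had -0.84, -0.80, -0.83 and -0.90 in the quadruple mutant and -0.37, -0.71, -0.53, -0.61 and -0.50 in K5R/K8R/K12R. The quadruple samples lay below all triple and all single mutant samples. Its fitted mean was -0.84 ± 0.08 (SE, limma adjusted p = 1.02e-13), 1.80-fold lower. UTP23, which takes part in release of the snR30 snoRNA, had -0.75, -0.89, -0.56 and -0.75 and overlapped with K5R/K8R/K12R, which reached -0.98. UTP11 had -0.96, -0.62, -0.77 and -0.43, and K5R/K8R/K12R overlapped with it too, from -0.87 to -0.50.

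UTP21, a subunit of UTP-B, was the UTP gene with a higher value. It had 0.32, 0.42, 0.18 and 0.46 in the quadruple mutant and -0.21, -0.40, 0.03, -0.22 and -0.41 in K5R/K8R/K12R. The 2 groups did not overlap. Its fitted means were 0.34 ± 0.07 (SE, limma adjusted p = 4.3e-05) and -0.24 ± 0.07 (adjusted p = 0.00502). Single mutant samples of UTP21 reached 0.36, within the range of the quadruple samples. UTP22 (-0.12) and UTP10 (-0.08) did not pass in the quadruple mutant.

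Among the other small subunit genes RRP36 had -0.77, -0.74, -0.71 and -0.83, below all single mutants, whose lowest sample had -0.08. Its fitted mean was -0.76 ± 0.10 (SE, limma adjusted p = 7.9e-09), 1.70-fold lower. NOP19 (-0.71) and NOP14 (-0.70), a processome protein, were close to it. RRP7 (-0.18), ENP1 (-0.17) and NOC4 (0.14) did not pass, but did when 1 quadruple sample was left out: RRP7 at -0.35 and NOC4 at 0.22 without replicate 3, and ENP1 at -0.27 without replicate 4. RRP7 and NOC4 also passed, at unchanged values, without replicate 2 of K5R/K8R/K12R. Of the genes of both subunits RRP5 was lower (-0.74), with -0.75, -0.81, -0.83 and -0.57, and already in the single mutants its 12 samples lay between -0.53 and -0.07.

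The exosome and the messenger RNA helicases were mixed. RRP46 (-0.68), RRP45 (-0.43), RRP6 (-0.27) and RRP42 (-0.20) were lower, RRP4 (-0.04) and RRP43 (0.05) did not pass, and RRP40, a cap protein, was higher at 0.15 (adjusted p = 0.0419). RRP40 did not pass without replicate 2, 3 or 4 of the quadruple mutant, with values of 0.16, 0.10 and 0.13. RRP43 changed sign to -0.16 without replicate 3. The samples of RRP46 were spread from -1.37 to -0.13, and its fitted mean was -0.42 without replicate 4. DBP5, of messenger RNA export, was lower at -0.40 and DBP2 at -0.29, the latter not without replicate 3 (-0.21).

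DBP1 was the highest of the 70 genes, with 0.53, 0.76, 0.72 and 0.67 in the quadruple mutant. The single mutants ran from -0.78 to 0.25, all below the quadruple samples. Its fitted mean was 0.67 ± 0.09 (SE, limma adjusted p = 5.61e-09), 1.59-fold higher. The value of -0.78 came from replicate 2 of K12R, whose other samples had 0.16 and 0.25. Of the snoRNP genes NOP56 was higher at 0.27 ± 0.09 (adjusted p = 0.00566), with -0.07, 0.40, 0.15 and 0.59, and NOP1 (0.11) and NOP58 (-0.07) did not pass. Without replicate 4 NOP56 had 0.16 and did not pass, and 2 genes in place of 4 were higher.

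**Figure D3:**
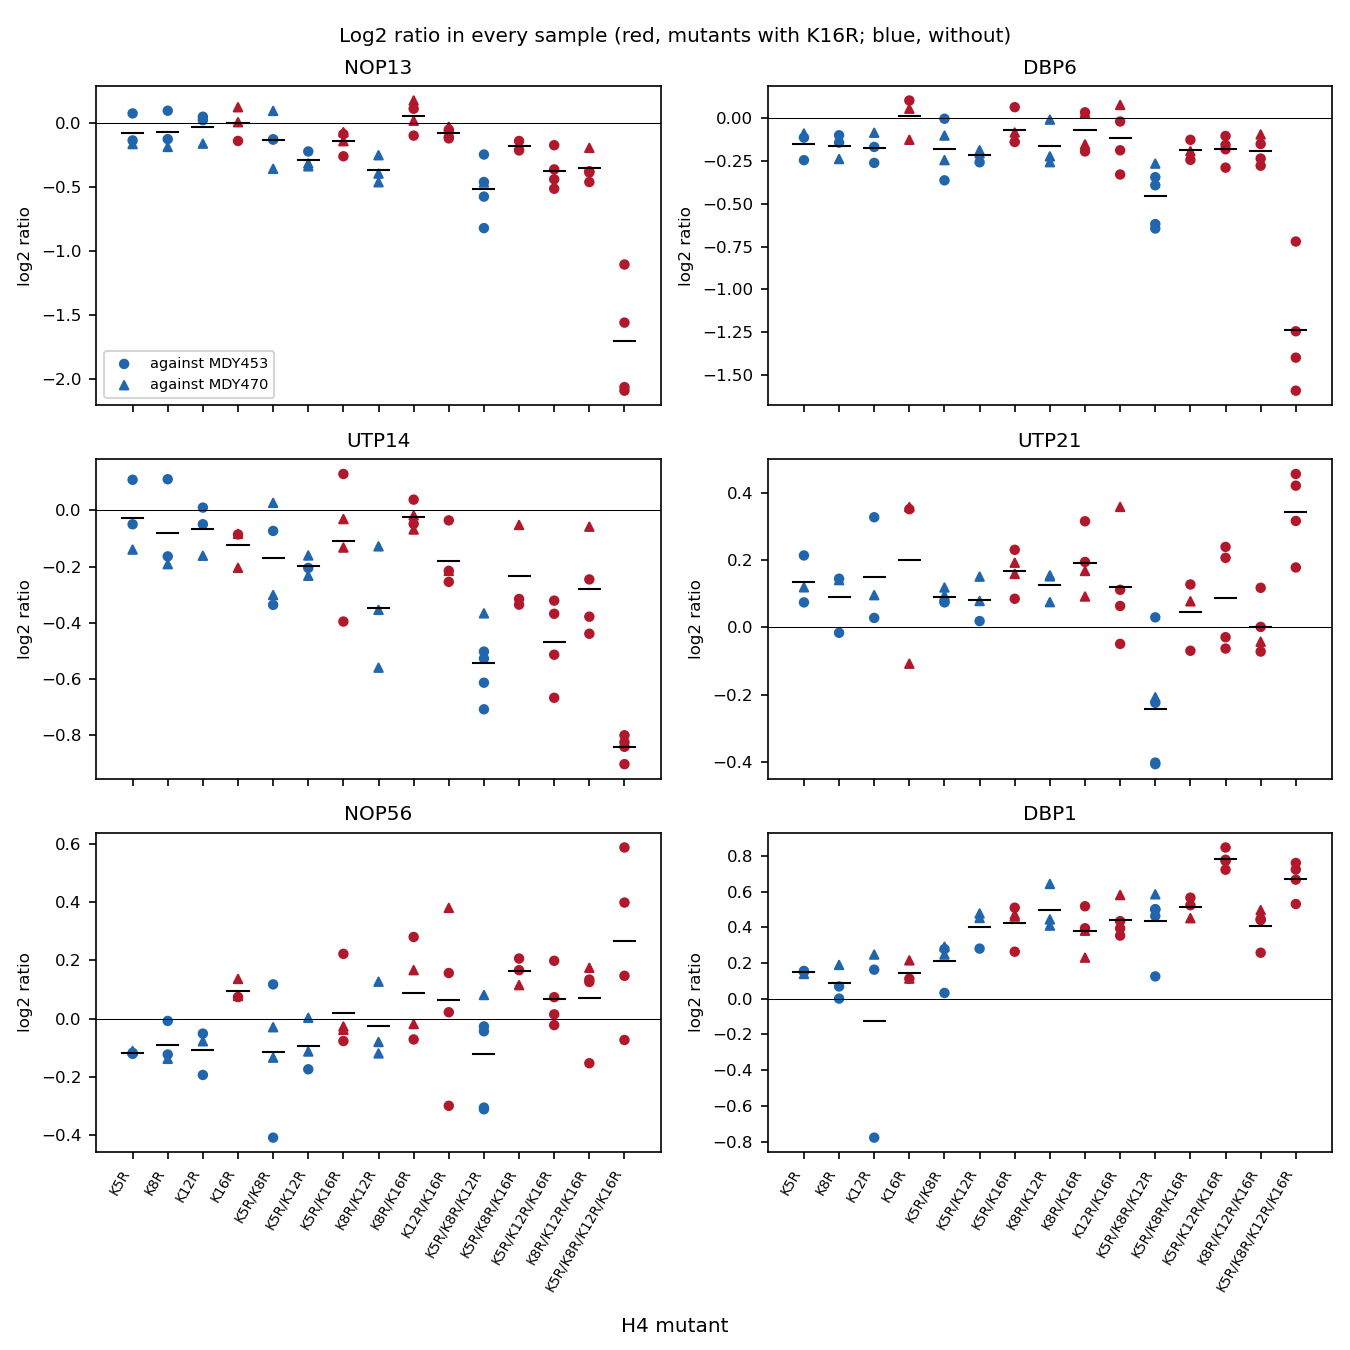
Log2 ratio of 6 genes in each of the 54 samples, by H4 mutant; red marks mutants with K16R and blue those without, circles arrays against MDY453 and triangles those against MDY470, and bars are means. NOP13 and DBP6 have their 4 quadruple samples below all others, UTP21 is low in K5R/K8R/K12R and high in the quadruple mutant, and DBP1 is higher in double, triple and quadruple mutants than in most single ones.

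The mutants were also compared by their number of substitutions, with the mutants of a class weighted equally. The share of mutants with K16R rises at each step, and the quadruple mutant has MDY453 arrays only. The number of substitutions, K16R and the parental strain thus cannot be told apart in these steps. Going from single to double mutants 4 genes were lower (5.49% of all genes): NOP19 (-0.26), RRP36 (-0.23), NOP6 (-0.21) and RRP8 (-0.14). DBP1 was higher by 0.32. Going from double to triple mutants 35 genes were lower (23.5% of all genes), 13 of 18 UTP genes and 22 of 52 others, and 0 were higher, or 1 at an unadjusted p. The lowest were NOP19 (-0.41), UTP23 (-0.37) and NOP9 (-0.34), an RNA-binding protein of the small subunit, and NOP16 (0.17), DBP1 (0.14) and NOP56 (0.06) stood highest without passing.

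Going from triple to quadruple mutants 31 genes were lower (24.4% of all genes) and 3 higher. NOP13 (-1.32), NOP2 (-0.99) and DBP6 (-0.97) had the deepest step, and UTP21 (0.36) and RRP40 (0.20) were the highest that passed, with NOC3 at 0.17. NOP56 had 0.22 without passing. With arrays scaled to a common spread 5 genes were lower at this step and 1 higher, and 22 were lower at the step before. On the MDY453 arrays alone 22 were lower at the last step (18.3% of all genes there). The first step had 1 to 4 lower genes over the samples left out in turn, and 2 lower and 1 higher without centring.

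The samples were then ordered by the number of arginines at positions 5, 8 and 12. With 0, 1, 2 and 3 of these sites mutated together with K16R, the median over samples of that value was 0.05, 0.01, -0.12 and -0.39. With 1, 2 and 3 sites mutated and lysine 16 kept, it was -0.03, -0.11 and -0.31. Among the 7 mutant pairs with and without K16R, the fitted median moved by at most 0.09 in 6, up or down. In K5R/K12R it moved from -0.12 to -0.22 in K5R/K12R/K16R.

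UTP genes and the other families were set side by side in each sample. The median of the UTP genes was below that of the other families in 39 of 54 samples, and the difference ran from -0.25 to 0.11, with a median of -0.04. In K5R/K8R/K12R the UTP genes were the lower group in 5 of 5 samples (difference -0.08 ± 0.05, SD, n = 5). In the quadruple mutant they were so in 1 of 4 samples (0.01 ± 0.07, SD, n = 4). These differences are given as descriptions, with no test.

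The ribosomal proteins themselves, the cargo of these factors, differed more between these mutants. Over 134 ribosomal protein genes the fitted median was -0.05 in K5R/K8R/K12R and -0.25 in the quadruple mutant, while over the assembly factors it was -0.33 and -0.35. By sample, the assembly factor median lay below the ribosomal protein median by 0.24 to 0.30 in K5R/K8R/K12R. In the quadruple mutant the gap was 0.10 to 0.22, so the ranges did not overlap. In the mean of K5R, K8R and K12R, 87 of the 134 ribosomal protein genes were lower (31.5% of all genes), with a median of -0.09. The K12R term had 91 lower (24.4% of all genes), with a median of -0.14. The K5R term had 29, which is 21.6% of the set beside 18.3% of all genes. The K8R term had 16, or 11.9% beside 18.0%, so these terms were near or below the shares over all genes. In K5R/K12R/K16R 55 were lower (28.0% of all genes), with a median of -0.15.

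**Figure D4:**
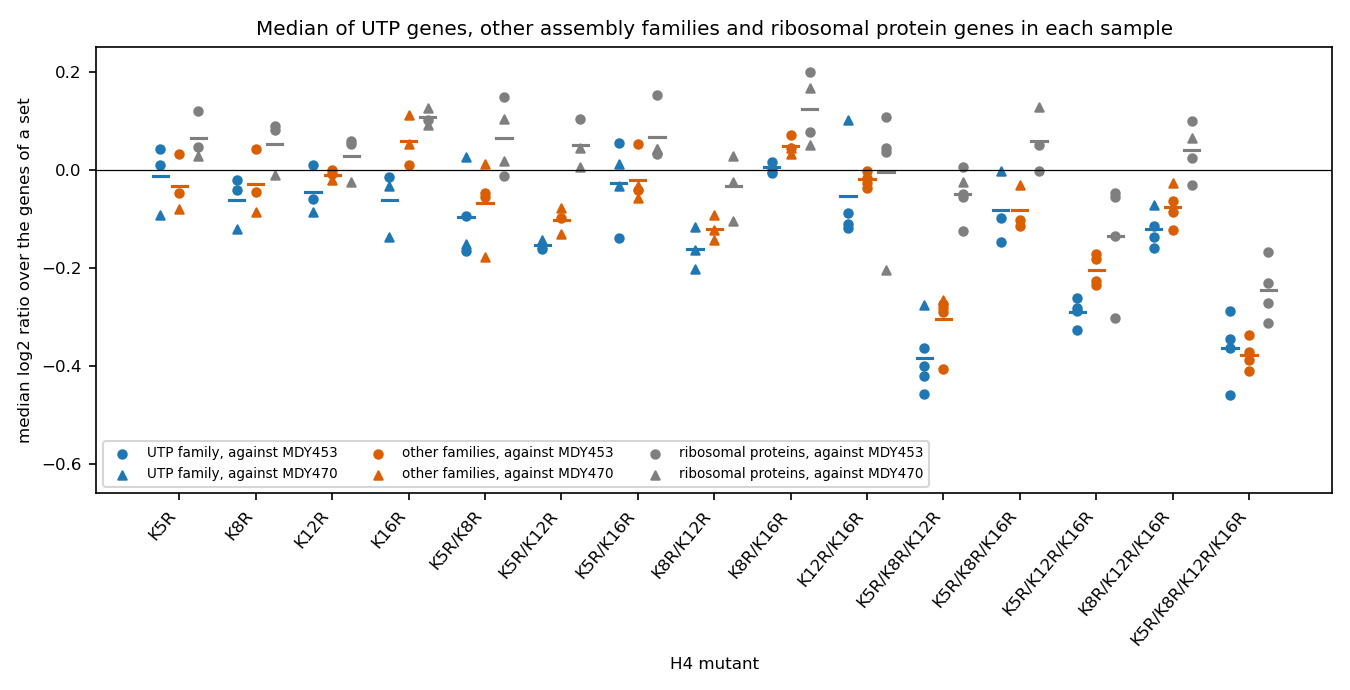
Median log2 ratio of the 18 UTP genes, the 52 genes of the other families and 134 ribosomal protein genes in each of the 54 samples, by H4 mutant; circles are arrays against MDY453, triangles those against MDY470, and bars are means over the samples. UTP genes and other families are low together in K5R/K8R/K12R, where the ribosomal proteins stay near 0, and all 3 sets are low in the quadruple mutant.

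The quadruple mutant was also set against K5R/K8R/K12R directly, a contrast chosen after the values had been seen. By genotype these mutants differ in K16R, but they are also different strains, and 1 of the 5 K5R/K8R/K12R samples was set against MDY470. Of the 70 genes 12 were lower (19.2% of all genes) and 7 higher (23.6% of all genes), with a median of -0.01, beside 0.02 over all genes. NOP13 (-1.17), DBP6 (-0.78), NOP2 (-0.76) and NOP15 (-0.68) were the lowest. Of the 12 lower genes 7 serve the large subunit, as do 23 of the 70, and this share was not tested. UTP21 (0.58), NOC4 (0.46) and NOP56 (0.37) were the highest, followed by NOC3 (0.35), UTP10 (0.33), UTP30 (0.32) and RRP40 (0.31).

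NOC4 had 0.30, 0.15, -0.06 and 0.21 in the quadruple mutant and -0.10, -0.79, -0.37, -0.39 and -0.08 in K5R/K8R/K12R. The lowest quadruple sample was above the highest triple sample. This contrast lost genes under other settings: 2 were lower and 5 higher with arrays scaled to a common spread, and 5 and 3 on the MDY453 arrays alone. Without replicate 1 of the quadruple mutant 7 were lower, and without replicate 1 of K5R/K8R/K12R 6.

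**Figure D5:**
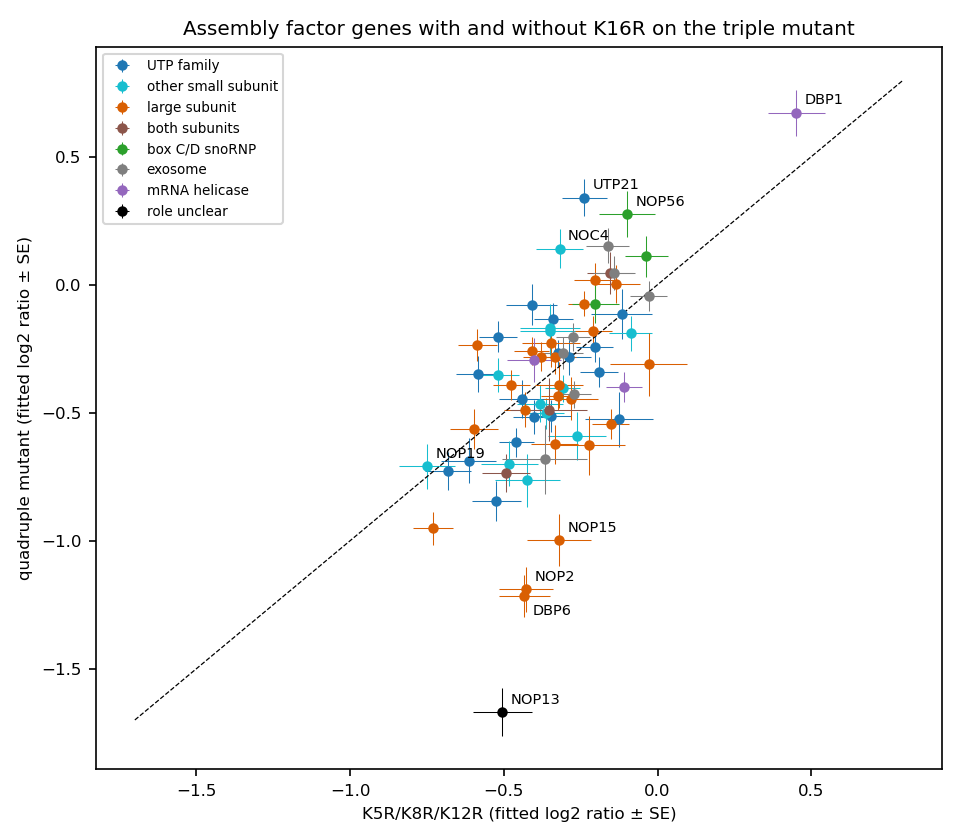
Each point is 1 of the 70 genes, coloured by role, with its fitted log2 ratio and standard error in K5R/K8R/K12R on the x axis and in the quadruple mutant on the y axis; the dashed line marks equal values. NOP13, DBP6, NOP2 and NOP15 lie far below the line and UTP21, NOC4 and NOP56 above it.

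Assembly genes with other names were listed from textbook knowledge. Of 95 listed genes, 75 were lower and 1 higher in the mean of K5R, K8R and K12R (31.5% lower and 32.4% higher over all genes), with a median of -0.14. In the quadruple mutant 66 were lower and 8 higher (36.6% and 37.2% over all genes), with a median of -0.37. The lowest there were JJJ1 (-1.65) and IPI3 (-1.52), both of the large subunit, and ESF2 (-1.38) of the small subunit. The highest were BUD23 (0.53), a methyltransferase of 18S rRNA, BUD20 (0.48) and REH1 (0.43). A further 12 snoRNP genes, among them the box H/ACA class and snoRNP assembly genes, had 9 lower for the mean of the 3 sites. In the quadruple mutant 10 were lower and 1 higher. For K16R 5 were lower (19.0% of all genes) and 1 higher (20.4% of all genes), with a median of -0.09. For the 3 box C/D core genes NOP1, NOP56 and NOP58 the counts were 0 lower, 1 higher and 3 higher, and that difference was not tested. In the K16R single mutant 0 of these 3 passed, also at an unadjusted p.

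Of 9 listed regulators of ribosome synthesis, 7 were higher in the quadruple mutant (37.2% of all genes). They were DOT6 (0.89), a repressor of ribosome biogenesis genes, SFP1 (0.72), an activator of them, HMO1 (0.55), RRN3 (0.54), which recruits RNA polymerase I, IFH1 (0.47), STB3 (0.42), which binds promoters of these genes, and the kinase SCH9 (0.29). TOD6 (-0.10), the paralogue of DOT6, and FHL1 (-0.15) did not pass. Activators and repressors were thus both among the higher genes.

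Stress genes were set beside the assembly factors. Listed were 25 genes induced in stress, such as HSP12 and CTT1. In K5R/K8R/K12R 25 of them were higher (29.8% of all genes), with a median of 1.23. In the quadruple mutant 25 were higher too (37.2% of all genes), with a median of 1.72. Over samples, their median ran from 1.20 to 1.51 in the first and from 1.47 to 1.87 in the second, against 0.03 to 0.36 in K5R, K8R and K12R. For K16R the assembly factors had a median of -0.02. Of the 25 stress genes 21 were higher (20.4% of all genes) and 1 lower (19.0% of all genes), with a median of 0.45. The stress median was higher with K16R in every pair of mutants with and without it. From K8R/K12R to K8R/K12R/K16R the stress median went from 0.65 to 1.11 and that of the assembly factors from -0.12 to -0.09. From K5R/K12R to K5R/K12R/K16R they went from 0.48 to 1.21 and from -0.12 to -0.22. In the remaining pairs the assembly factor median moved by at most 0.09, up or down. The part of a stress response or of growth rate in the assembly factor result was not tested.

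Neighbours on the chromosome were few. Of the 70 genes 9 lay next to another of them or to a listed assembly gene, 12.9% beside 5.67% of all named genes, with RRP15 and NOC4 as the only pair of neighbours among the 70. In the quadruple mutant RRP15 was lower at -0.63 and NOC4 stood at 0.14, so this pair did not move together.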

How the data were processed

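RNA of 15 histone H4 mutants was hybridised with RNA of a parental strain on 55 two-colour arrays, per the labels. The authors deposited 1 processed ratio per probe and array. The values are taken as log2 ratios, since the deposited values end at plus and minus log2 of 100; dyes, background correction and normalization are in none of the sources used here. Of 6720 probes 5570 had 1 gene name, 5565 of them matched the RefSeq gene table, and probes of a gene were averaged, which gave 5540 genes. Values at the limit (43 among named probes, 0 among the 70 genes) were treated as missing, as were 4 missing values of the 70 genes, among them NOP1 in replicate 3 of the quadruple mutant.

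Each array was centred on its median, which lay between -0.07 and 0.05 before. A technical pair was averaged. limma 3.58.1 in R 4.3.3 was fitted to all genes, with an intercept and 4 site terms or with 1 mean per mutant tested against 0, and with the strain as a random block (within-strain correlations of 0.35 and 0.20). Adjusted p-values are Benjamini-Hochberg values over 5540 genes, with a threshold of 0.05.

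The 70 genes, their roles and the other lists were chosen with earlier results of these data known. Genes are named by a rule: the 3 lowest and 3 highest of each role in the quadruple mutant and of each site effect and step, the lowest and highest of the other mutants, the 3 lowest and 3 highest listed assembly genes outside the families, and all listed regulators. Other genes named, such as those of short called lists, UTP8, UTP25, NOP9, RRP1, RRP42, NOC3 and the genes of the contrast of the quadruple mutant with K5R/K8R/K12R, were chosen after their values were seen. The alternatives were no centring, centring on genes outside ribosome synthesis, scaling the arrays to a common spread, values at the limit kept, complete genes only, no strain block, the parental strain as a fixed term or 1 parental strain alone, a replicate block, no intercept, selection by current symbol, and leaving out each sample in turn.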

Additional observations from a re-analysis of the deposited data

Results flagged for a closer look

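In 8 of 167 groups of 4 or 5 samples, the lowest or highest sample stood far from the others (4.79%, where chance gives about 1 group in 20). The median of the UTP genes was 0.102 in replicate 1 of K12R/K16R, above the other samples of that mutant, and RRP5 had 0.505 in the same sample. The median of the other families was -0.407 in replicate 4 of K5R/K8R/K12R, below its other samples, and UTP11 had -0.873 there. NOP56 was high in replicate 3 of K5R/K16R (0.222) and low in replicate 2 of K8R/K12R/K16R (-0.153). DBP1 was low in replicate 1 of K5R/K8R (0.0323) and in replicate 2 of K5R/K8R/K12R (0.125).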

How the results depend on the processing

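Counts below are of the 70 genes called lower unless said otherwise. Leaving out each sample in turn gave 55 to 59 for the mean over sites 5, 8 and 12, 50 to 53 for the quadruple mutant, 54 to 58 for K5R/K8R/K12R and 30 to 45 for K5R/K12R/K16R. The counts that moved by over 1.5 times ranged from 6 to 12 for K16R, 1 to 4 for double minus single, 6 to 15 for quadruple minus K5R/K8R/K12R, 4 to 11 for K5R/K8R, 4 to 18 for K5R/K12R, 0 to 6 for K5R/K16R, 6 to 17 for K8R/K12R, 0 to 1 for K8R/K16R, 2 to 10 for K12R/K16R and 9 to 18 for K5R/K8R/K16R. Called in either direction were 0 to 1 in K8R, 0 to 1 in K12R and 1 to 7 in K16R, and 2 to 5 were higher in the quadruple mutant. RRP43 in the quadruple mutant ran from -0.156, without its replicate 3, to 0.154.

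On MDY470 arrays alone the count was 14 for the mean of the 3 sites, 3 for K5R, 5 for K8R, 6 for K12R, 0 for K16R (4 higher), 2 for double minus single, 36 for K8R/K12R, 4 for K8R/K16R, 14 for K12R/K16R, 34 for K5R/K8R/K12R, 4 for K5R/K8R/K16R and 2 for K8R/K12R/K16R. K12R, K12R/K16R, K5R/K8R/K12R, K5R/K8R/K16R and K8R/K12R/K16R have 1 sample there, assumed to vary like the other groups. On the MDY470 arrays 9 had a higher K16R effect than the mean of the other sites (2.83% of all genes). In the single mutant K16R 3 were lower (12.9%) and 5 higher (12.8%). The medians for the mean of the sites were -0.033 (UTP) and -0.0578 (others). The UTP median of K5R/K8R/K12R was -0.275, and NOP13 turned to 0.114 for the K16R term. On MDY453 arrays alone it was 5 for K16R, 0 for K5R/K8R, K5R/K12R, K5R/K16R and K12R/K16R, 6 for K5R/K8R/K16R, 4 for K8R/K12R/K16R, and 5 for quadruple minus K5R/K8R/K12R (3 higher). There 8 had a higher K16R effect than the mean of the others, and 0 were called in the single mutants K12R and K16R.

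With arrays scaled to a common spread it was 46 for the mean of the 3 sites and 35 for the quadruple mutant. The triple mutants K5R/K8R/K12R and K5R/K12R/K16R had 52 and 34. The K5R and K8R terms had 30 and 18, and the 3 steps 11, 22 and 5. Quadruple minus K5R/K8R/K12R had 2. The double mutants had 22 (K5R/K8R), 24 (K5R/K12R), 9 (K5R/K16R), 25 (K8R/K12R), 2 (K8R/K16R) and 11 (K12R/K16R). Then 15 were higher with K16R and 2 in the quadruple mutant, and 23, 14, 13 and 21 were called in K5R, K8R, K12R and K16R. The medians became -0.154 (UTP) and -0.167 (others) in the quadruple mutant and -0.252 and -0.223 in K5R/K8R/K12R.

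Without an intercept it was 20 for K5R, 4 for K8R, 30 for K12R and 1 for K16R (12 higher). Without the strain block it was 15 for K5R/K8R, 7 for K5R/K16R, 22 for K8R/K12R, 2 for K8R/K16R and 9 for K12R/K16R; 43 had a higher K16R effect than the other sites, 11 were higher for quadruple minus K5R/K8R/K12R, and 1, 4 and 11 were called in K8R, K12R and K16R. Without centring it was 2 for double minus single, 0 for K5R/K16R and 3 for K12R/K16R, 0 and 9 were called in K12R and K16R, and the median of the other families in the quadruple mutant was -0.409. With the parental strain as a fixed term it was 7 for K5R/K16R. The causes of these changes were not tested.

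Replicate numbers of the labels did not pair the samples: the correlation of their deviations over 48 pairs ran from -0.412 to 0.426, with a median of 0.0266. With the number as a replicate block it was 1 for double minus single, 7 for K8R/K12R and 1 for K8R/K16R, and 11 were higher for quadruple minus K5R/K8R/K12R. The planned count of promoter motifs was not run, since no promoter sequences were used here.

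The arrays give no spot brightness, so how far each probe stood above background is unknown. K8R/K12R had 1 strain and the MDY470 arrays no quadruple mutant.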
